A study of Sus scrofa with 14 samples.

Results

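Myoepithelial nuclei of the porcine mammary gland were taken from single-nucleus RNA libraries by a rule on 13 genes. A nucleus needed at least 300 detected genes and RNA of at least 2 of 7 genes (TP63, OXTR, LAMA1, MYH11, FHOD3, ADAMTS3 and ISM1), with TP63 or OXTR among them. It also needed no RNA of 6 genes that mark other cells: RGS5 (mural cells of vessel walls), COL1A1 (fibroblasts), PTPRB (endothelium), CD163 (macrophages), CD3E (T cells) and ADIPOQ (adipocytes). The rule found 2976 of the 127926 nuclei with at least 300 genes. The nuclei were thus chosen by the UMIs of these 13 genes, and the levels of these genes are given below as a description without a test. The glands came from multiparous sows in their second breeding cycle, 2 sows at each of 5 stages, with 1 library per sow: day 90 of gestation (G90), day 0 (L0) and day 20 (L20) of lactation, and 2 days (PI2) and 7 days (PI7) post natural involution. All sows were fed a normal diet, and nuclei were isolated from snap-frozen tissue that holds every cell type of the gland. Where values are listed by gland, replicate 1 stands before replicate 2.

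Myoepithelial cells form the basal layer of ducts and alveoli, between the milk-secreting luminal cells and the basement membrane. Oxytocin released at suckling binds its receptor OXTR on these cells, calcium rises through Gq and phospholipase C, and myosin light chain kinase sets smooth-muscle myosin to work on actin, which pushes milk into the ducts. The cells are also basal epithelium, kept so by the transcription factor TP63, with keratins 5 and 14 and hemidesmosomes that hold them to laminin.

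Each library held between 18962138 and 53165191 unique molecular identifiers (UMIs, each marking 1 RNA molecule), in 9400 to 18694 nuclei with at least 300 genes. At most 205 cell barcodes were shared by any 2 libraries. Levels below are in CPM, the usual scaling of the UMIs of a gene by all UMIs of the myoepithelial nuclei of its gland, which amounted to between 157867 and 2553137 UMIs. The libraries of 1 stage were not always the most alike: the rank correlation over genes of myoepithelial sums between the 2 sows of a stage was 0.595 at L20 and 0.628 at PI2, against 0.813 to 0.841 at the other stages, and PI2 replicate 1 and PI7 replicate 2 reached 0.866 and L20 replicate 2 and PI7 replicate 1 reached 0.853.

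Several genes of contraction and of the basal layer that the rule did not use were among those highest relative to other nuclei. Among 2177 genes with at least 50 CPM in every gland, the highest lowest-gland ratio to all other nuclei was that of MYLK, the kinase that starts smooth-muscle contraction, with 4.95-fold in its lowest gland and a median of 8.91-fold. It was followed by SYNPO2, an actin-bundling protein (lowest 4.08-fold), ACTA2, smooth-muscle alpha actin (3.89-fold), LAMA3, a chain of the laminin that hemidesmosomes bind (3.84-fold), NIBAN1 (3.71-fold), COL17A1, the collagen of hemidesmosomes (3.66-fold), and CCN2, a matricellular target of YAP (3.57-fold). RCAN2, MME (the surface peptidase CD10), MSRB3, FGFR2, PLCB1 (the phospholipase C that Gq activates), FGFR1 and BOC were among the rest of the first 15 genes, with lowest ratios from 3.34 down to 2.96. KRT14 and KRT5 were above the other nuclei in 10 of 10 glands, and KRT17 had no match by symbol in the files. These ratios compare nuclei that the rule had set apart and are a description.

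The rule had a soft edge. Exactly 2 rule genes were seen in 1025 of the nuclei and 3 or more in 1951, while 2767 nuclei outside the rule carried 1 rule gene that was TP63 or OXTR. A further 1290 nuclei met the marker part but held RNA of the 6 genes left out. TP63 without OXTR was found in 2031 members, OXTR without TP63 in 442 and both in 503. Over the 10 glands, median ACTA2 was 826 CPM in nuclei with 3 or more rule genes, 60.2 in those with exactly 2, 13 in those with 1, and 33.0 in all other nuclei. For the same groups MYLK had medians of 1248, 165, 65.6 and 59.2 CPM, and LAMA3 of 821, 103, 26.9 and 49.1 CPM. The luminal transcription factors EHF and ELF5 ran the other way: ELF5 had a median of 241 CPM with 3 or more rule genes, 911 with exactly 2, and 964 with 1. Nuclei with exactly 2 rule genes thus stood nearer to nuclei outside the rule than to the rest of the members in these genes, and they made up 16.2% (PI2 replicate 1) to 65.7% (G90 replicate 2) of the members of a gland.

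**Figure D1:**
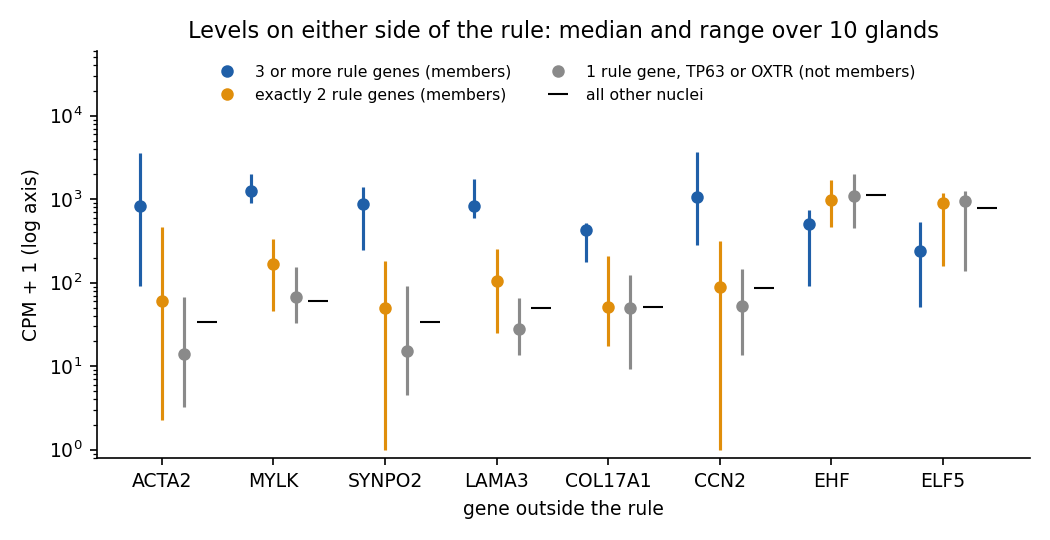
Level (CPM + 1, log axis) of 8 genes outside the rule in nuclei just inside and just outside it, as the median (point) and range (line) over the 10 glands, with the median of all other nuclei as a dash. Median ACTA2 is 826 CPM with 3 or more rule genes, 60.2 with exactly 2 and 13 with 1, while ELF5 is lowest, at 241 CPM, with 3 or more.

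RNA of other cells was present in the members. UMIs in at least 2 of 6 luminal markers (EHF, ELF5, EPCAM, PRLR, ERBB4, KRT18) were carried by the following shares of the members of a gland: 54.1 and 77.0% (G90), 61.4 and 40.5 (L0), 11.8 and 15.5 (L20), 41.2 and 29.0 (PI2), and 37.0 and 34.9 (PI7). The shares at L20 lay below those of every other gland. The 9 luminal markers outside the rule together amounted to 3464 and 5688 CPM in gestation, 4885 and 3676 on L0, 1254 and 1158 on L20, and in involution 2504 and 1080 on PI2 and 1784 and 1572 on PI7. Casein and alpha-lactalbumin RNA, the messages of milk proteins, ran from 51.7 CPM in L20 replicate 2 to 9246 CPM in L0 replicate 1. Markers of other cells that the rule did not use were lower: the summed level over members was 9.26 to 67.4 CPM for 4 mural markers (ABCC9 was at 0), 5.60 to 633 for 5 fibroblast, 33.6 to 265 for 4 endothelial, 4.63 to 234 for 2 macrophage, 5.60 to 130 for 3 T cell and 0 to 289 for 3 adipocyte markers. L20 replicate 2 was highest for fibroblast, macrophage, T cell and endothelial markers. The part of this RNA in the stage results below was not tested, and for several genes the levels in members with fewer than 2 luminal markers are given beside those in all members.

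The share of myoepithelial nuclei averaged lowest in lactation, but it varied between sows of 1 stage and the difference did not pass the test. Members made up 5.74% (95% exact interval 5.32 to 6.18) and 1.6% (1.43 to 1.80) of nuclei in gestation, 1.26% (1.07 to 1.48) and 1.18% (0.971 to 1.42) on L0, and 0.719% (0.581 to 0.881) and 1.31% (1.13 to 1.5) at L20. They made up 3.02% (2.73 to 3.33) and 0.734% (0.572 to 0.928) at PI2, and 4.45% (4.14 to 4.78) and 2.79% (2.48 to 3.13) at PI7. The intervals cover counting error only, and those of the 2 sows did not overlap at any stage except L0. Stage means were 3.67% ± 2.92 (SD, n = 2) in gestation, 1.22% ± 0.0595 and 1.01% ± 0.414 in lactation (L0, L20), and 1.88% ± 1.62 and 3.62% ± 1.18 in involution (PI2, PI7), and of neighbouring stages only G90 and L0 did not overlap in all members at full depth. The 4 glands of lactation had 1.12% ± 0.270 and the 6 others 3.06% ± 1.83, a difference of -1.94 percentage points (exact two-sided permutation test over 210 splits, p = 0.0857, smallest possible 0.00476). PI2 replicate 2 decided this call: without it the difference was -2.40 and the exact permutation p was 0.0159 over 126 splits. Leaving out any other gland gave an exact permutation p of 0.0635 to 0.167, and at least 3 rule genes gave 0.105.

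Depth and luminal RNA also differed between these glands, and shares at equal depth and without luminal-marker members are given beside the first. The median member held 3327.5 and 3519.5 UMIs at G90 but 1249 to 2314 at the other stages, and the median of all other nuclei ran from 1406 to 2485.5. Thinned to 1000 UMIs per nucleus, the shares averaged 1.94% ± 2.02 (SD, n = 2) in gestation and 0.528% ± 0.0887 and 0.790% ± 0.388 in lactation (L0, L20). In involution (PI2, PI7) they averaged 1.48% ± 1.31 and 2.95% ± 0.392. The highest mean was then that of PI7 rather than G90, and the lowest that of L0 rather than L20. At this depth G90 (3.37 and 0.508%) overlapped L0 (0.466 and 0.591%), while PI7 (3.23 and 2.68%) lay above PI2 (2.41 and 0.553%). Without luminal-marker members G90 (2.63 and 0.369%) overlapped L0 (0.488 and 0.701%) too. After thinning, with luminal-marker members kept, the lactation difference was -1.46 percentage points (exact permutation p = 0.0857), and with luminal-marker members left out at full depth it was -0.921 (exact permutation p = 0.133). Fewer myoepithelial cells, more cells of other types and unequal recovery of nuclei cannot be told apart in such a share. The rule also removed nuclei that met its marker part but held RNA of genes that mark other cells. By gland these numbered 232 and 31 (G90), 16 and 3 (L0), 27 and 328 (L20), 72 and 5 (PI2), and 449 and 127 (PI7). In L20 replicate 2 they outnumbered the 200 members. The part of this removal in the order of the shares was not tested.

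**Figure D2:**
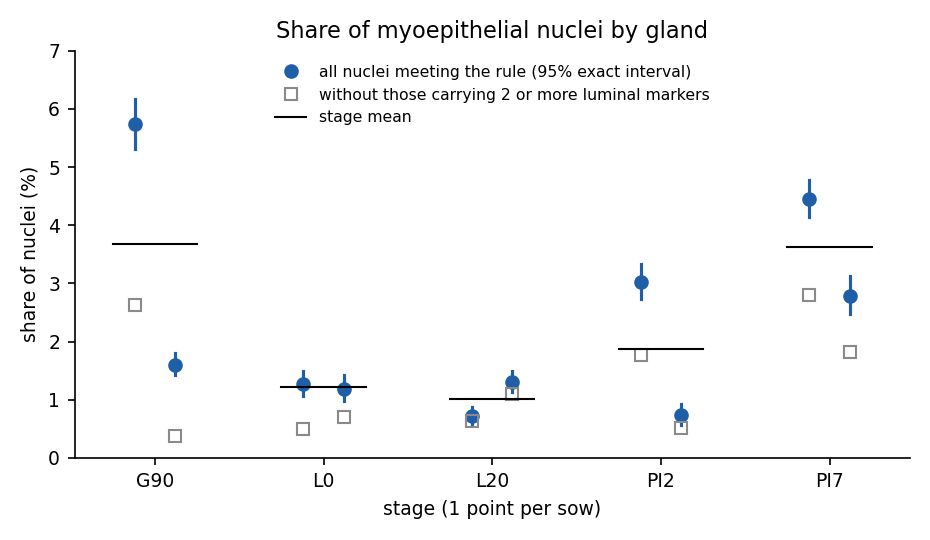
Share of nuclei that met the rule (percent) for each sow at the 5 stages, with exact 95% intervals, stage means as lines, and open squares for the share without members carrying 2 or more luminal markers. The 4 glands of lactation lie between 0.719 and 1.31%, and PI2 replicate 2 lies among them at 0.734%.

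The genes of the rule were found in every gland. TP63 stood at 555 and 452 CPM (G90), 531 and 671 (L0), 1102 and 945 (L20), 751 and 795 (PI2), and 628 and 894 (PI7). OXTR stood at 134 and 75.2 CPM in gestation, 257 and 565 on L0, 177 and 248 on L20, and in involution 290 and 375 on PI2 and 162 and 461 on PI7. TP63 was highest in both glands of L20, but without luminal-marker members it ranged from 836 to 1216 CPM and PI7 replicate 2 was highest. OXTR was lowest in both glands of G90 and highest in L0 replicate 2, and L20 lay below L0 and PI2 without overlap. The rule itself needed a UMI of TP63 or OXTR, and depth and luminal RNA of the members differed between glands. Their part in the order of stages for these genes was not tested. MYH11, the smooth-muscle myosin heavy chain, ranged from 534 CPM in L20 replicate 2 to 3115 in L0 replicate 2, and L20 held its lowest values (621 and 534). LAMA1, a laminin chain, ranged from 241 to 1199 CPM, and FHOD3, an actin-assembling formin, from 448 to 1923. ADAMTS3, a procollagen protease, ranged from 135 to 876 CPM and ISM1 from 134 to 842. In all other nuclei LAMA1 stood at 108 and 122 CPM at G90 and at 5.51 to 53.3 CPM in the other glands. In G90 replicate 2 it was seen in 78.3% of members, and MYH11 in 32.3%. The part of such LAMA1 RNA in the choice of members at G90 was not tested. UMIs of TP63 were seen in 67.6 to 95.3% of members and UMIs of OXTR in 16.7 to 53.2%. In macrophage nuclei, which should lack both, TP63 was seen in at most 5.40% and OXTR in at most 2.40%, and in endothelial nuclei in at most 5.81% and 3.23%. The other rule genes reached higher shares there. MYH11 was seen in up to 16.6% of macrophage and 17.8% of endothelial nuclei, and FHOD3 in up to 15.4 and 14.7%. ADAMTS3 was seen in up to 17.5% of endothelial nuclei. How many members rest on RNA from other cells was not tested. The median depth of these background nuclei was 1328.5 to 3000 UMIs by gland and class.

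Most contraction genes had higher levels at L0 than at G90 and lower ones at L20 than at L0, although only 1 of the 24 tested passed the edgeR test among stages. ACTG2, the smooth-muscle gamma actin of visceral muscle, differed among stages (edgeR quasi-likelihood test, Benjamini-Hochberg adjusted p = 0.0341), as 26 of the 10751 genes tested did (0.242%). It stood at 31.7 and 75.2 CPM (G90), 247 and 458 (L0), 19.0 and 10.3 (L20), 21.7 and 118 (PI2), and 5.14 and 9.19 (PI7). Both glands of L0 lay above all others, and both of PI7 below all others. The values at L20 rest on 3 and 5 UMIs and those at PI7 on 11 and 6. In luminal nuclei of the same glands ACTG2 ran from 1.83 to 8.93 CPM, and all 10 glands had more in myoepithelial nuclei. Without luminal-marker members it stood at 64.7 and 247 CPM in gestation, 898 and 806 on L0, 24.4 and 14.8 on L20, and in involution 25.2 and 165 on PI2 and 8.46 and 14.6 on PI7, and it was called there too. The call held in 17 of 21 alternatives (highest adjusted p = 0.12) and was lost without L0 replicate 1, L0 replicate 2, PI7 replicate 1 or PI7 replicate 2. Its log2 fold changes between neighbouring stages were 2.83 ± 0.74 (SE) for L0 against G90 (adjusted p = 0.243), -4.95 ± 0.92 for L20 against L0 (adjusted p = 0.144), 2.28 ± 0.95 for PI2 against L20 (adjusted p = 0.773) and -3.32 ± 0.88 for PI7 against PI2 (adjusted p = 1). The main edgeR fit thus called no single step.

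Of the 30 contraction genes, 29 were in the files and 24 had enough counts to be tested. MYL9 and PDLIM3 were listed at 0 in all glands, and DES, MYOCD and SRF were too low to test. At L0 against G90, 23 of the 24 had a log2 fold change above 0, with a median of 1.1 against -0.08 over all genes, and edgeR called none. In 11 of 24 both glands of L0 lay above both of G90, where 15.7% of all genes did. At L20 against L0, 4 of 24 were above 0 (median -0.80, all genes 0.05), and in 8 both glands of L20 lay below both of L0, against 14.5% of all genes. At PI2 against L20, 21 were above 0 (median 0.87, all genes 0.02) and 8 lay wholly above, against 12.6% of all genes. At PI7 against PI2, 5 were above 0 (median -0.34, all genes -0.01) and 4 lay wholly below, against 10.8%. In the main edgeR fit no contraction gene was called in any of these steps. At an unadjusted p under 0.05 were 10, 9, 6 and 2 of the 24, where 10.0, 12, 6.37 and 2.75% of all genes were. Other settings gave calls for the 3 followed here. By DESeq2, ACTG2 and SMTN were called at L0 against G90 (adjusted p = 0.0155 and 0.0181), and ACTG2 and ACTA2 at L20 against L0 (adjusted p = 0.000116 and 0.0025). With no filter on low counts edgeR called each of these too, and ACTG2 at PI7 against PI2. ACTG2 was also called at L20 against L0 without G90 replicate 1 (adjusted p = 0.0452) or G90 replicate 2 (adjusted p = 0.0397). Over 22 alternatives the first 3 medians kept their sign (0.63 to 1.27, -1.32 to -0.34, and 0.35 to 1.18), while that of PI7 against PI2 ran from -0.70 to 0.02. Without luminal-marker members the medians were 0.75, -1.23, 0.82 and -0.32.

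ACTA2 stood at 704 and 242 CPM (G90), 815 and 2315 (L0), 63.3 and 327 (L20), 785 and 638 (PI2), and 456 and 687 (PI7). It was highest at L0, and L20 lay below L0 and below PI2 without overlap (log2 fold change -3.16 ± 0.75 (SE) for L20 against L0, adjusted p = 0.199). Without luminal-marker members ACTA2 reached 1415 and 1062 CPM at G90 and 2919 and 3678 at L0, against 64.9 to 953 in the other glands, so both glands of L0 lay above all others. SMTN, smoothelin, a protein of contracting smooth muscle, stood at 49.7 and 44.3 CPM in gestation, 242 and 222 on L0, 44.3 and 70.3 on L20, and in involution 89.2 and 252 on PI2 and 57.1 and 181 on PI7. Its L0 values were above those of G90 and L20 and overlapped those of PI2. Without luminal-marker members the overlap was gone, with 786 and 344 CPM at L0 and 48.7 to 255 in the other glands. TAGLN, transgelin, an actin-binding protein, stood at 82.3 and 54.3 CPM (G90), 147 and 185 (L0), 50.7 and 24.8 (L20), 72.6 and 235 (PI2), and 136 and 119 (PI7). In TAGLN, L0 lay above G90 and L20, and PI2 replicate 2 was the highest gland. Without luminal-marker members both glands of L0 (516 and 275 CPM) lay above PI2 replicate 2 (214 CPM) and all others. CNN1, calponin, an actin-binding protein of smooth muscle, stood between 12.5 and 176 CPM with its highest value at L0 replicate 2, on 2 UMIs in its sparsest gland.

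Other genes of the list followed this order less. MYLK ranged from 443 to 1416 CPM with L20 below PI2 and PI7 below PI2 and overlap at the other steps. Without luminal-marker members it was highest at L0 (2077 and 2311 CPM) and lowest at L20 (852 and 689 CPM). CALD1, caldesmon, which holds myosin back on actin, was highest in PI2 replicate 2 (6735 CPM) with 689 to 2310 in the other 9 glands. MRTFA, a cofactor of the serum response factor (SRF), ran against the list at L0, with 252 and 144 CPM at G90 and 83.3 at both glands of L0 (log2 fold change -1.07 ± 0.48 (SE), not called). MRTFB and DMD (dystrophin) were high at L0 too (786 and 847 CPM, and 4342 and 5157 CPM), but luminal nuclei held as much or more MRTFB in all glands and as much or more DMD in 5 of 10. Without luminal-marker members DMD had 2941 and 5055 CPM at L0, the first below PI2 replicate 2 (3046 CPM).

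**Figure D3:**
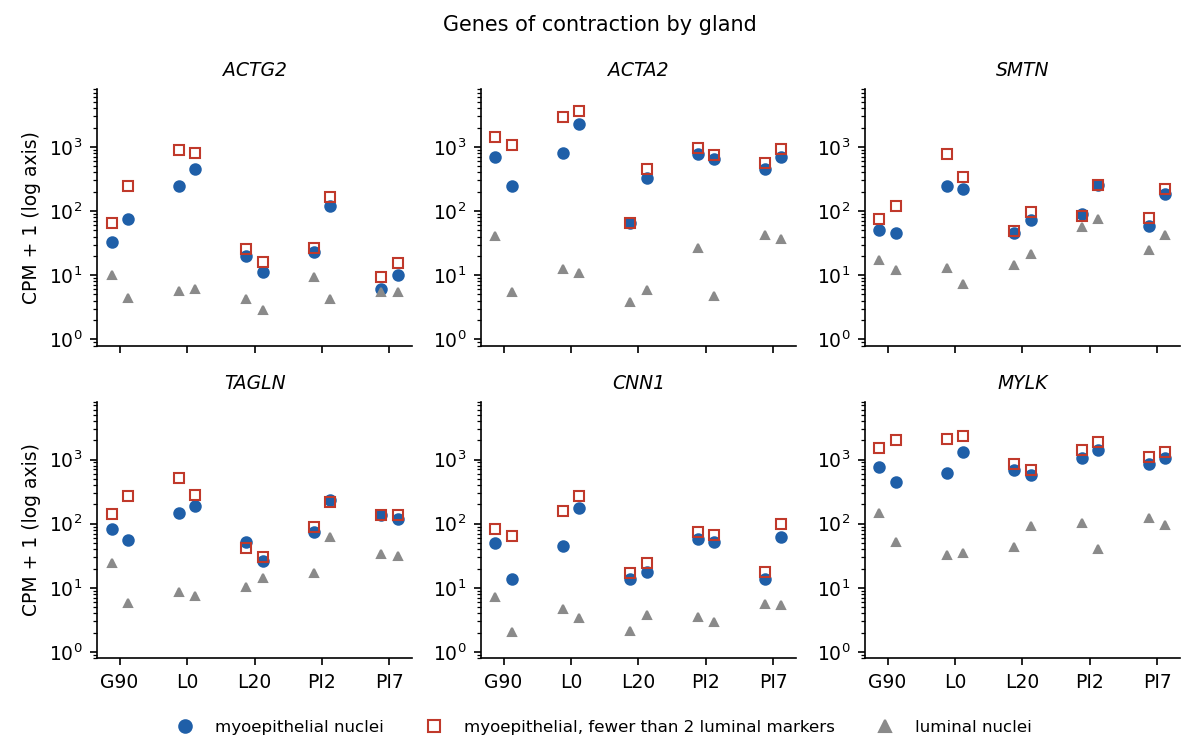
Level (CPM + 1, log axis) of 6 contraction genes by stage, 1 point per sow, in all myoepithelial nuclei (filled circles), in those with fewer than 2 luminal markers (open squares) and in luminal nuclei (triangles). ACTG2 is highest at L0 (247 and 458 CPM) and lowest at PI7 (5.14 and 9.19 CPM), while luminal nuclei stay at 8.93 CPM or below.

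Many contraction genes are controlled in muscle through the CArG box, the site bound by SRF and its cofactors. The windows of 250 bases before the RefSeq gene start on Sscrofa11.1 were searched on both strands for the CArG box by name. It was found in 4 of 28 contraction genes with a window (14.3%) and in 256 of 19534 protein-coding genes (1.31%). The window of ACTG2, the contraction gene that was called among stages, is shown and holds no box. It lies at chr3:69121543-69121792 on the minus strand and runs 5′ to 3′ along the gene, in lower case throughout since no box marks it:
ACTG2: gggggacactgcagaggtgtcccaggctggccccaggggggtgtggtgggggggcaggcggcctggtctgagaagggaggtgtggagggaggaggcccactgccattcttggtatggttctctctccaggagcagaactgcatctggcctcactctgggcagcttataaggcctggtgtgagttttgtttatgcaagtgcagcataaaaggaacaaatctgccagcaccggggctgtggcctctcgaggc
A match is a description of letters and no match says only that the letters are not in this window.

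The machinery downstream of the oxytocin receptor had list medians near those of all genes. Of 29 genes, 28 were tested and none was called in any comparison of stages, with medians of 0.10, 0.26, -0.01 and 0.01 on the log2 scale from step to step (all genes -0.08, 0.05, 0.02 and -0.01). At an unadjusted p under 0.05 stood 1, 5, 0 and 0 of them. Over the alternatives the medians stayed within -0.29 to 0.59. PLCB1 was above the other nuclei in 10 of 10 glands and stood at 1440 and 766 CPM (G90), 502 and 1241 (L0), 817 and 1212 (L20), 2014 and 1036 (PI2), and 1091 and 1706 (PI7), with overlap at every step. ITPR1, the calcium release channel of the endoplasmic reticulum, ranged from 216 to 750 CPM and was above luminal nuclei in 10 of 10 glands. ITPR2, its relative, was below luminal nuclei in 10 of 10 glands. PRKG1, the cGMP kinase that relaxes smooth muscle, stood at 266 and 431 CPM at G90 and 485 to 995 in the other glands, so G90 lay below them all (log2 fold change 1.2 ± 0.49 (SE) for L0 against G90, not called). ATP2B1, a calcium pump of the cell surface, had 44.1 and 92.6 CPM at L0 and 209 and 288 at L20 (1.68 ± 0.49, not called).

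**Figure D4:**
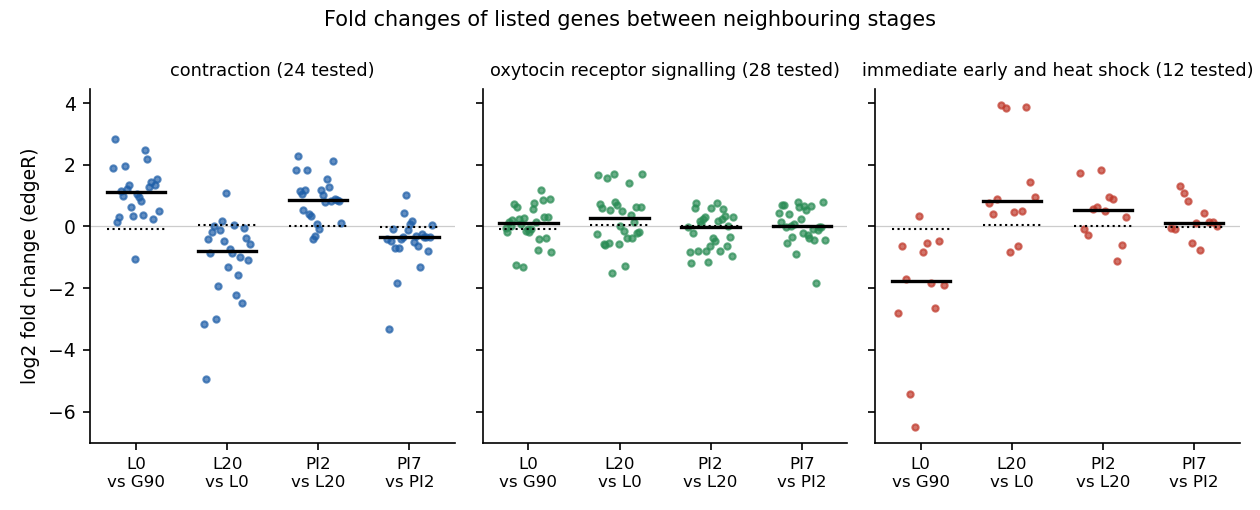
Log2 fold change (edgeR) of each tested gene of 3 lists between neighbouring stages, with the list median as a solid bar and the median of all tested genes as a dotted bar. The contraction list has medians of 1.1, -0.80, 0.87 and -0.34 from left to right, the oxytocin receptor list 0.10, 0.26, -0.01 and 0.01, and the immediate early and heat shock list -1.78, 0.83, 0.54 and 0.13.

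Genes of basal identity and adhesion were present at all stages, with no call. Of 17 tested genes of basal keratins and hemidesmosomes none was called at any stage, and the medians were -0.20, 0.23, 0.27 and -0.28. Over the alternatives they ran from -0.32 to 0.99, -0.53 to 0.62, -0.02 to 1.01 and -0.48 to -0.01, and leaving out 1 gland was enough to turn each of the first 3. KRT14 stood at 354 and 44.3 CPM in gestation, 309 and 393 on L0, 773 and 209 on L20, and in involution 494 and 918 on PI2 and 444 and 755 on PI7. KRT5 stood at 177 and 20.9 CPM (G90), 105 and 167 (L0), 120 and 72.4 (L20), 148 and 134 (PI2), and 327 and 173 (PI7). For both keratins G90 replicate 2, the gland with the largest share of luminal-marker members, was lowest. Neighbouring stages overlapped in KRT14, while KRT5 lay higher at PI2 than at L20 and higher at PI7 than at PI2 without overlap. LAMA3 ranged from 246 to 1215 CPM and was above luminal nuclei in 10 of 10 glands. DST, which ties keratin to the hemidesmosome, stood at 545 and 666 CPM at L20 and at 1340 and 1394 at PI2 (log2 fold change 1.2 ± 0.54 (SE), not called).

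Basement membrane and integrin genes gave 25 tested and none called, with medians of -0.01, 0.59, -0.20 and 0.13, each of which turned its sign under some alternative. COL4A5 and COL4A6, collagen IV chains, were above other nuclei in 10 of 10 glands, at 42.6 to 186 and 22.0 to 210 CPM. COL4A3 and COL4A4 stood at 265 and 251 CPM in G90 replicate 1 and at 188 or below in the other glands. ITGA1, a collagen-binding integrin, was high in 2 glands, with 643 CPM in L0 replicate 2 and 733 in PI2 replicate 2 against 97.2 to 175 in the other 8. LAMA4, NID1, BNC2 and EBF1, which fibroblasts and vessels also express, were highest in L20 replicate 2, the gland with the most fibroblast RNA among its members.

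Signals and receptors gave 36 tested genes and none called, with medians of -0.28, 0.25, 0.08 and 0.13, of which only the second (0.07 to 0.55) kept its sign over the alternatives. NRG1, a ligand of ERBB receptors, was above other and luminal nuclei in 10 of 10 glands and stood at 548 and 245 CPM in gestation, 167 and 259 on L0, 348 and 428 on L20, and in involution 289 and 269 on PI2 and 260 and 251 on PI7. Without luminal-marker members it stood at 1078 and 791 CPM at G90 and 251 to 571 in the other glands, so G90 was then highest. FGFR1, FGFR2, MET (the receptor of hepatocyte growth factor), KITLG (the ligand of KIT) and the Notch ligands JAG2 and DLL1 were likewise above both in 10 of 10 glands. MET ranged from 32.6 to 201 CPM, KITLG from 31.7 to 160 and JAG2 from 14.7 to 119. TGFA, EGFR and IL34 were below luminal nuclei in 8 to 10 of 10 glands. LGR6, a receptor of R-spondins found on some basal cells, stood at 188 and 165 CPM at G90 and at 0 to 63.7 in the other glands (log2 fold change -2.82 ± 0.83 (SE) for L0 against G90, not called). Of 10 tested hormone receptors none was called. GHR, the growth hormone receptor, was above luminal nuclei in 10 of 10 glands, while PRLR, ESR1, PGR and THRB were below them in 8 to 10.

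Among 17 tested basal transcription factors and YAP genes none was called, with medians of 0.07, 0.26, -0.14 and 0.13, of which only the last kept its sign over the alternatives. ID4 and TRIM29 were above other nuclei in 10 of 10 glands, at 26.9 to 181 and 12.5 to 93.0 CPM. CCN2 stood at 838 and 113 CPM (G90), 228 and 227 (L0), 399 and 743 (L20), 1239 and 784 (PI2), and 948 and 3041 (PI7). The 4 glands of involution thus exceeded those of L0 and L20, and G90 replicate 1 lay among them.

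Most genes that differed among stages in myoepithelial nuclei had the same highest stage in luminal nuclei. Of the 26 called genes 15 were highest at L0, 7 at G90, 2 at PI7 and 1 each at L20 and PI2. The highest stage was the same in luminal nuclei for 24 of 26, ACTG2 and ZEB2 being the exceptions, and 12 were lower than in luminal nuclei in 9 or 10 glands. These counts were not made over all tested genes, so there is no share to set beside them. ACTG2 was the only called gene with more in myoepithelial nuclei in at least 9 glands. Among calls that carry a symbol, the smallest p belonged to PAPLN, KCNH8, SNTG1, CSN1S1 and MCOLN2 (adjusted p = 0.0088, 0.0088, 0.0114, 0.0131 and 0.0176), and ENSSSCG00000007398, which has no symbol, had an adjusted p of 0.0088 as well. PAPLN, an extracellular matrix protein, stood at 457 and 1227 CPM at G90 and 10.3 to 132 afterwards, and luminal nuclei averaged 1051 CPM at G90. KCNH8, a potassium channel, stood at 516 and 456 CPM at G90 and 19.0 to 88.0 afterwards. Without luminal-marker members PAPLN had 93.5 and 348 CPM at G90 and 8.88 to 92.5 afterwards, KCNH8 had 82.7 and 139 CPM at G90 and 0 to 50.4 afterwards, and neither was called. CSN1S1, alpha-S1 casein, had 4748 and 2004 CPM at L0 and 82.3 and 39.3 at L20, and luminal nuclei held more in 10 of 10 glands. Its levels without luminal-marker members were 2077 and 1062 CPM at L0 and 40.6 and 11.8 at L20. Without luminal-marker members 9 genes were called, of which ACTG2, CSN1S1 and PAEP were among the 26. Like CSN1S1, PAEP was highest at L0 in luminal nuclei too, with a mean of 6807 CPM there in all members and 5214 in luminal nuclei. The milk protein genes that were summed, and left out in an alternative, did not include PAEP.

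CTSD, cathepsin D, a lysosomal protease, was called as well (adjusted p = 0.0341), in 13 of 21 alternatives (highest adjusted p = 0.168). The call was lost after thinning, with at least 3 rule genes, without luminal-marker members, with the replicate block, and without either gland of L0 or of PI7. Without luminal-marker members it had 49.1 and 0 CPM (G90), 67.4 and 9.84 (L0), 325 and 219 (L20), 92.5 and 132 (PI2), and 404 and 342 (PI7), with the same separation of G90 and L0 from the later glands. In all members it stood at 35.6 and 14.2 CPM in gestation, 26.9 and 9.26 on L0, 291 and 188 on L20, and in involution 84.1 and 129 on PI2 and 344 and 306 on PI7, and was higher than in luminal nuclei in 8 of 10 glands. All glands from L20 on lay above those of G90 and L0. RNA of the 2 macrophage markers among the members was also higher at L20 (38.0 and 234 CPM) and PI7 (76.7 and 68.9) than at G90 and L0 (4.63 to 14.1). At PI2 it was not (10.2 and 5.60 CPM). The part of macrophage RNA in the CTSD levels was not tested. ZEB2, a transcription factor of mesenchyme, was highest in L20 replicate 2 (279 CPM, 5.85 or below in L0 and in G90 replicate 2), and it was below all other nuclei in 10 of 10 glands and was called in 9 of 21 alternatives. CHL1, an adhesion molecule, was above other and luminal nuclei in 10 of 10 glands without being called, at 186 and 165 CPM (G90), 384 and 569 (L0), 285 and 434 (L20), 792 and 795 (PI2), and 495 and 501 (PI7).

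Between neighbouring stages 2 genes were called at L0 against G90 (0.0186% of 10751) and none at the other steps (0.0%). SNTG1, a syntrophin of the dystrophin complex, rose from 9.79 and 4.18 CPM at G90 to 191 and 218 at L0 (log2 fold change 4.96 ± 0.63 (SE), adjusted p = 0.0158), and luminal nuclei went from 16.3 and 6.84 to 269 and 302 CPM. TOPAZ1, known from germ cells, rose from 3.53 and 2.51 CPM to 127 and 88.0 (5.26 ± 0.65, adjusted p = 0.0158), and luminal nuclei went from 6.95 and 1.41 to 103 and 23.1 CPM. Both calls were lost without any 1 of the 4 glands compared (adjusted p = 0.0582 to 0.196) and without luminal-marker members (adjusted p = 0.732 for SNTG1 and 0.189 for TOPAZ1). In those members the log2 fold change was 2.18 for SNTG1, with 44.9 and 29.5 CPM at L0, and 4.68 for TOPAZ1, with 3.59 and 0 CPM at G90 and 89.8 and 68.8 at L0. They were also lost after thinning to 1000 UMIs, with at least 3 rule genes and with only the 2 stages in the fit, so that each was lost in 8 of 22 alternatives. With edgeR, 1291 genes at L20 against L0, 685 at PI2 against L20 and 296 at PI7 against PI2 had an unadjusted p under 0.05, and DESeq2 called 142, 2 and 1 genes at these steps. For lactation against the other stages edgeR called SNTG1 alone (0.0093%, log2 fold change 3.11, adjusted p = 0.0345), a call that was lost in 11 of 21 alternatives, among them 6 that leave out 1 gland (L0 replicate 1 or 2, L20 replicate 2, PI2 replicate 1, PI7 replicate 1 or 2).

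Immediate early genes are switched on within minutes of a stimulus, and tissue handling also induces them. In the main edgeR fit they gave no call between stages in myoepithelial nuclei, and FOS was lowest at L0. FOS stood at 1329 and 168 CPM in gestation, 12.2 and 18.5 on L0, 323 and 223 on L20, and in involution 485 and 313 on PI2 and 943 and 851 on PI7. Both glands of L0, with 5 and 4 UMIs, lay below all others (log2 fold change -5.42 ± 0.88 (SE) against G90, adjusted p = 0.0978), and without luminal-marker members L0 had 0 and 19.7 CPM and the other glands 172 to 2587. FOS was called at this step in 7 of 22 alternatives (log2 fold change -7.13 to -3.43), among them DESeq2 (adjusted p = 9.8e-08), no filter on low counts, at least 3 rule genes, luminal-marker members left out (adjusted p = 0.0191), and without G90 replicate 2 (adjusted p = 0.000864), L20 replicate 1 (0.046) or PI2 replicate 2 (0.0436). ATF3 stood at 464 and 28.4 CPM (G90), 14.7 and 50.9 (L0), 63.3 and 57.9 (L20), 271 and 118 (PI2), and 73.4 and 335 (PI7), with overlap between G90 and L0. Of 12 tested immediate early and heat shock genes 1 was above 0 at L0 against G90 (median -1.78) and none in lactation against the other stages (median -0.90, all genes -0.04), and none was called in these comparisons. In lactation 0 of the 12 were wholly below the other stages, where 1.15% of all genes were, and 5 had an unadjusted p under 0.05, where 8.25% did. Both glands of L0 lay below both of G90 in 6 of 12, where 31.2% of all genes did. The median at L0 against G90 ran from -2.10 to -0.89 over the alternatives, the latter without G90 replicate 1, where 3 of 12 were above 0.

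Genes of involution and matrix turnover had 22 tested members, with a median of 1.08 at L20 against L0 (16 above 0, and 0.94 to 1.56 over the alternatives) and of 0.05, -0.11 and 0.20 at the other steps, and none was called. Both glands of L20 lay above both of L0 in 9 of 22, against 27.7% of all genes. Fibroblast marker RNA in the members was also higher at L20 (234 and 633 CPM) than at L0 (75.9 and 23.1). Macrophage marker RNA was too (38.0 and 234 against 9.79 and 4.63 CPM), while endothelial and adipocyte markers overlapped. The part of this RNA in the list median was not tested. CTSB, cathepsin B, had 44.1 and 18.5 CPM at L0 and 184 and 151 at L20, and TIMP3, an inhibitor of metalloproteinases, had 51.4 and 222 CPM at L0, 190 and 372 at L20 and 375 to 861 in involution. LIFR, the receptor through which LIF acts on STAT3, was above luminal nuclei in 10 of 10 glands and stood at 213 and 179 CPM at G90 and at 470 and 634 at L0 (log2 fold change 1.64 ± 0.54 (SE), not called). Of 15 tested genes of interferon and NF-kappa-B responses none was called, and MX1, an interferon-induced antiviral GTPase, stood at 669 CPM in G90 replicate 2 and at 4.63 to 112 in the other glands. Of the dividing-cell genes all 7 tested had an unadjusted p under 0.05 among stages, where 11.9% of all genes did, and none was called. CENPF, of the kinetochore, stood at 97.1 and 472 CPM in gestation, 7.35 and 111 on L0, 82.3 and 6.21 on L20, and 0 to 13.1 in involution. Among members thinned to 1000 UMIs, 10 of 290 (3.45%) and 9 of 82 (11%) held at least 2 dividing-cell genes at G90, against 6.97 and 11.9% of other nuclei there. The members held more than other nuclei in 4 glands: L0 replicate 2 (2.33 against 0.498%), L20 replicate 1 (8.16 against 3.44%), L20 replicate 2 (2.48 against 1.64%) and PI2 replicate 1 (0.847 against 0.408%). These rest on 1 to 4 members each, and the exact 95% interval of each share in the members included that of other nuclei. In the other 4 glands the members held 0 to 0.75% and other nuclei 0.267 to 1.69%.

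The change in lactation was set against that of luminal nuclei in the same glands, with the gland as a block. Of 16564 genes tested, 19 were called (0.115%). Of these 7 had a higher and 12 a lower change in myoepithelial than in luminal nuclei. Over all genes the median difference was -0.22, and 5809 lay above 0. The balance of directions depended on the setting. With RLE size factors 8 were higher and 3 lower, and by DESeq2 7 and 3. After thinning 34 were higher and 74 lower, and without luminal-marker members 29 and 131. SMTN was the only contraction gene among 26 tested that was called, and 7 of the 26 had an unadjusted p under 0.05, where 9.2% of all genes did. It averaged 145 CPM ± 102 (SD, n = 4) in lactation and 112 ± 85.2 (n = 6) at other stages in myoepithelial nuclei, and 12.9 ± 5.69 and 37.2 ± 24.9 in luminal nuclei. The log2 difference of the 2 changes was 1.43 ± 0.30 (SE, adjusted p = 0.0319). It was called in 19 of 22 alternatives, with a range of 0.66 to 1.93, and the call was lost without L20 replicate 2 (adjusted p = 0.149).

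FOS differed the other way. It averaged 144 CPM ± 154 (SD, n = 4) in lactation and 682 ± 437 (n = 6) at other stages in myoepithelial nuclei, and 310 ± 391.9 and 413 ± 339 in luminal nuclei (-1.88 ± 0.30 (SE), adjusted p = 0.00075). KCND2, a voltage-gated potassium channel that was above other nuclei in 10 of 10 glands, averaged 97.6 CPM ± 27.7 (SD, n = 4) in lactation and 179 ± 97.6 (n = 6) at other stages, against 26.9 ± 8.82 and 16.0 ± 7.80 in luminal nuclei. Its log2 difference was -1.85 ± 0.29 (SE, adjusted p = 0.000654). CHL1 averaged 418 CPM ± 118 (SD, n = 4) in lactation and 489 ± 277 (n = 6) at other stages, against 180 ± 97.5 and 81.8 ± 39.1 in luminal nuclei (-1.35 ± 0.29 (SE), adjusted p = 0.0358). ADAMTS12, a secreted metalloprotease, had the highest difference, 2.46 ± 0.46 (SE, adjusted p = 0.00916), with 73.7 CPM ± 51.5 (SD, n = 4) in lactation and 21.2 ± 12.3 (n = 6) at other stages, against 11 ± 7.97 and 21.7 ± 10.7 in luminal nuclei. This call was lost without L0 replicate 2 (adjusted p = 0.292). SMTN, FOS, KCND2, CHL1 and ADAMTS12 were also called without luminal-marker members, among 160 genes.

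The remaining 14 called genes were spread over both directions. P3H2 (1.85), ENSSSCG00000044051 (1.97), ZEB1 (1.5), SCGN (1.46) and HPSE2 (1.34) had a higher change in myoepithelial nuclei. They were called in 19, 18, 14, 14 and 13 of 22 alternatives. Leaving out 1 gland ended the call of ZEB1 (without L0 replicate 2, L20 replicate 2 or PI2 replicate 1), of SCGN (without L0 replicate 2, 0.80) and of HPSE2 (without G90 replicate 1, L0 replicate 1, L20 replicate 2 or PI2 replicate 1, the last 0.88), and ZEB1 was at 0.25 with at least 3 rule genes. P3H2 was at 1.23 without PI2 replicate 1, still called, and at 0.22 against mural nuclei. ENSSSCG00000050944 (-2.13), TBC1D30 (-1.73), ST6GALNAC3 (-1.70), ARL15 (-1.55), PARM1 (-1.35), ACYP2 (-1.28), GULP1 (-1.17), RASSF8 (-1.05) and SETBP1 (-1.04) had a lower one. In the same order they were called in 20, 10, 18, 17, 11, 16, 14, 14 and 13 of 22 alternatives. Leaving out 1 gland ended the call of TBC1D30 (G90 replicate 1 or PI2 replicate 1), PARM1 (L0 replicate 2 or L20 replicate 2), ARL15 (L20 replicate 1, -0.91), GULP1 and RASSF8 (G90 replicate 1, L20 replicate 1 or PI2 replicate 1) and SETBP1 (L0 replicate 2, L20 replicate 1, PI2 replicate 1 or PI7 replicate 2), in part because the log2 fold change no longer passed -1. Against mural nuclei GULP1 was at -0.19. Of these, only ARL15 was also called among stages in myoepithelial nuclei, at 5289 and 3333 CPM at L0 and 570 to 1002 in the other glands. Without luminal-marker members ARL15 had 2200 and 1593 CPM at L0 and 588 to 1268 in the other glands. With the replicate number as a block in place of the gland edgeR called no gene (327 at an unadjusted p under 0.05), and with the gland as a block DESeq2 called 10.

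**Figure D5:**
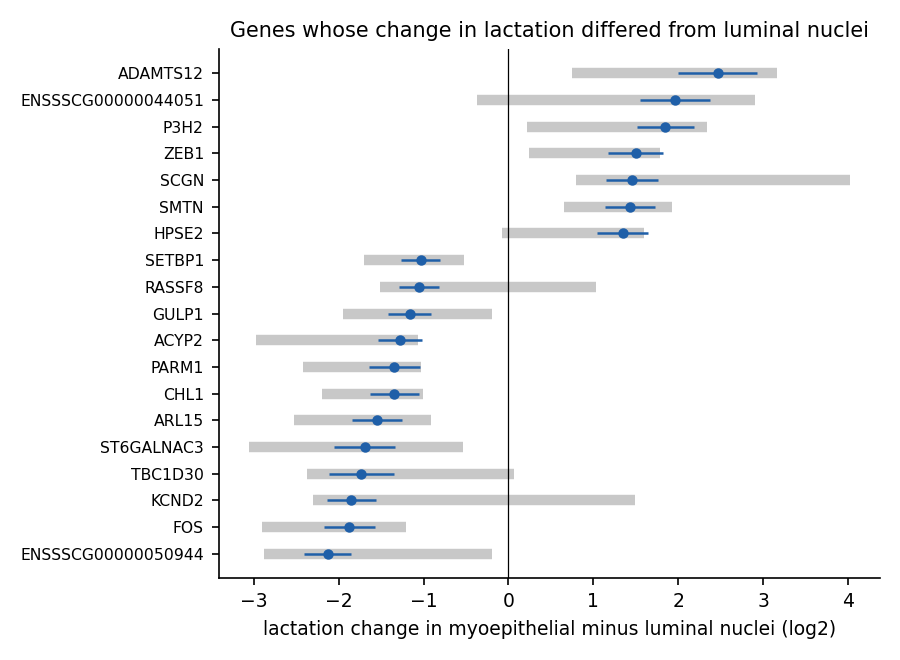
Difference between the lactation change in myoepithelial and in luminal nuclei (log2) for the 19 called genes, with standard errors as thin lines and the range over 22 alternatives as grey bars. SMTN lies at 1.43 and FOS at -1.88 with ranges that stay on 1 side of 0. The range of KCND2 crosses 0 only through the alternative with mural nuclei, which lacks G90 replicate 2, L0 replicate 2 and PI2 replicate 2.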

How the data were processed

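Single-nucleus RNA was measured in 10 mammary glands, 2 sows at each of 5 stages, and 2 milk samples and 2 tissue sections were read only for the closing section. The authors deposited raw UMI counts per gene and nucleus, made with CeleScope from paired-end reads on Sscrofa11.1. They kept nuclei with 300 genes or more and no more than 25% mitochondrial UMIs. The sources used here do not name the annotation release. Of 30071 gene identifiers, 15900 had a symbol in the files and 676 a symbol from the reference.

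Nuclei were chosen by the rule given in the report, and their counts were summed per gland. Each sow was 1 replicate. Sums were tested with edgeR 4.0.16 (quasi-likelihood F test, TMM, filterByExpr by stage, all 5 stages in 1 fit), and genes were called at a Benjamini-Hochberg adjusted p under 0.05 and, for contrasts, a log2 fold change beyond 1. The change in lactation (L0 and L20 against G90, PI2 and PI7) was set against that in luminal nuclei, which are nuclei with at least 2 of the 6 luminal markers and no RNA of TP63, OXTR, LAMA1 or the 6 left-out genes, with the gland as a block. Shares were compared by an exact permutation test. Doublets were scored with Scrublet (scanpy 1.11.5). Its automatic threshold marked under 0.5% of nuclei in 9 of 10 glands, so the top 5% by score were taken there, 1.08 to 8.67% of members by gland, and left out only as an alternative. The gene tests were tested on simulated data.

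Alternatives were thinning to 1000 UMIs, at least 3 rule genes, at least 500 genes, the mitochondrial limit, doublets or luminal-marker members left out, DESeq2 1.42.0, RLE size factors, no filter on low counts, milk protein genes left out, the replicate number as a block, only the stages compared, mural nuclei in place of luminal nuclei, and each gland left out. The alternative with mural nuclei used only glands with at least 10 of them. Named genes were the rule genes, members of gene lists, the 15 leading genes outside the rule, up to 5 called genes in each direction per comparison, and where few were called the 5 with the smallest p among stages. CTSD, ZEB2, ARL15, CHL1 and the further called genes were chosen after their values were seen. The members, lists and comparisons were chosen with earlier results of these data known. Promoter windows came from the RefSeq annotation of Sscrofa11.1. Levels in CPM are not per length, so genes are not compared with each other. Some genes and sequences are not reported here.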

Additional observations from a re-analysis of the deposited data

Results flagged for a closer look

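The change in lactation differed between myoepithelial and luminal nuclei of the same glands for 19 genes, by the edgeR interaction test with the gland as a block. The log2 differences were 2.46 for ADAMTS12, 1.97 for ENSSSCG00000044051, 1.85 for P3H2, 1.5 for ZEB1, 1.46 for SCGN, 1.43 for SMTN and 1.34 for HPSE2. They were -2.13 for ENSSSCG00000050944, -1.88 for FOS, -1.85 for KCND2, -1.73 for TBC1D30, -1.70 for ST6GALNAC3, -1.55 for ARL15, -1.35 for CHL1, -1.35 for PARM1, -1.28 for ACYP2, -1.17 for GULP1, -1.05 for RASSF8 and -1.04 for SETBP1.

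Single glands stood far from the rest of their group, by Dixon's gap test, in 3 of 42 groups of myoepithelial levels that were looked at. Apart from the share, the groups were of genes already called, and the rate by chance in them was not worked out. HPSE2 stood at 443 CPM in G90 replicate 2 among the glands outside lactation. ZEB1 stood at 234 CPM and P3H2 at 592 CPM in L20 replicate 2 among the glands of lactation, the gland with the highest fibroblast and macrophage RNA among its members.

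The rule was met by barcodes in samples that no comparison used. In the G90 tissue section 31 of 4718 spots met it (0.657%, exact 95% interval 0.447 to 0.931), and in the PI2 section 14 of 2198 (0.637%, 0.349 to 1.07). A spot can hold several cells, so a stromal gene in the same spot removes it from the count. Over all spots ACTA2 stood at 901 CPM in the G90 and 645 CPM in the PI2 section, and KRT14 at 516 and 1905 CPM. In the cells of milk at L0, 20 of 17630 met the rule (0.113%, 0.0693 to 0.175), and at L20 3 of 14554 did (0.0206%). These are 1 library each, with no replicate.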

How the results depend on the processing

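Depth and replication were low: the members of a gland summed to as few as 157867 UMIs, with 2 sows per stage. Counts of called genes depended on the settings. Among stages 12 genes were called after thinning, 9 without luminal-marker members, 447 by DESeq2, 1005 with no filter on low counts and 10 with the replicate block. At L0 against G90 the counts were 0 after thinning, 1 with at least 3 rule genes, 112 by DESeq2, 252 with no filter and 0 with only the 2 stages in the fit. At L20 against L0 they were 1 with at least 3 rule genes, 142 by DESeq2 and 377 with no filter, at PI2 against L20 they were 2 and 58, and at PI7 against PI2 they were 1 and 23, by DESeq2 and with no filter. For lactation against the other stages they were 0 after thinning, 0 with at least 500 genes, 33 by DESeq2, 152 with no filter and 0 with the replicate block. For the difference from luminal nuclei they were 108 after thinning, 53 with at least 3 rule genes, 160 without luminal-marker members, 10 by DESeq2, 11 with RLE, 66 with no filter, 0 with the replicate block in place of the gland, and 4 with mural nuclei. The cause of these changes was not tested.

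With each gland left out in turn the counts ran from 5 to 182 among stages (5 without L0 replicate 1 and 182 without G90 replicate 1), 0 to 16 at L0 against G90, 0 to 23 at L20 against L0, 0 to 0 at the 2 later steps, 0 to 7 for lactation, and 25 to 175 for the difference from luminal nuclei. The share difference ran from -2.40 to -1.40, with an exact permutation p of 0.0159 for -2.40 without PI2 replicate 2. Without any other gland the exact permutation p was 0.0635 to 0.167. With mural nuclei in place of luminal nuclei 5 genes changed sign: KCND2 (1.49), RASSF8 (1.03), TBC1D30 (0.066), ENSSSCG00000044051 (-0.37) and HPSE2 (-0.072). That alternative left out the glands with fewer than 10 mural nuclei: G90 replicate 2 (5), L0 replicate 2 (8) and PI2 replicate 2 (8). G90, L0 and PI2 were thus left with 1 sow each in it.

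The sows of different stages were different animals, and deviations of same-numbered glands had correlations of -0.262 to 0.164. With 2 glands per stage these correlations cannot show whether same-numbered libraries shared a batch. With the replicate block the share difference was -1.94 (exact permutation p = 0.07 over 100 arrangements).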
